A study of Homo sapiens with 8 samples.

Results

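The genes of coenzyme Q synthesis were examined as a group of 10 members, taken by gene symbol from a table of 61806 genes: COQ2, COQ3, COQ4, COQ5, COQ6, COQ7, COQ8A, COQ8B, COQ9 and COQ10B. Coenzyme Q, or ubiquinone, is the lipid that carries electrons from the dehydrogenases of the inner mitochondrial membrane to complex III. A polyprenyl tail, built from the isoprenoids of the mevalonate pathway, is joined to a para-hydroxybenzoate ring, and the ring is then hydroxylated, decarboxylated and methylated by enzymes that assemble with COQ proteins on the matrix side of that membrane. One member acts on the finished lipid: COQ10B is a lipid-binding protein of the START family that handles finished coenzyme Q and is not known as an enzyme of its synthesis.

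mRNA was measured by poly(A)-selected RNA sequencing in N/TERT-1 cells, a line of human epidermal keratinocytes immortalized with telomerase, in 4 libraries of cells given the solvent ethanol and 4 of cells given O/A, the combination of oligomycin, an inhibitor of ATP synthase, and antimycin A, an inhibitor of complex III at its site of quinone reduction. All 8 libraries came from wild-type (WT) cells in keratinocyte serum-free medium with epidermal growth factor and bovine pituitary extract, and the 4 libraries of each condition came from independent experiments with 1 cell line. The labels of the samples give neither the doses nor the duration of the treatment. The study made the comparison to look at transcripts of cholesterol synthesis and uptake, and the coenzyme Q genes were measured in the same libraries.

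The libraries held 17210404 to 20999927 counts after ethanol and 17689760 to 19263046 after O/A, and transcripts of the mitochondrial genome took 4.01% to 4.81% and 4.01% to 4.64% of them. The keratinocyte label was met: KRT5, a basal keratin, lay between 1397 and 1495 FPKM (fragments per kilobase of exon, scaled to the library total) after ethanol and between 1094 and 1177 after O/A. The summed level of 7 keratinocyte markers was 3216 to 3476 FPKM after ethanol and 2888 to 3049 after O/A, a difference without overlap that was carried by the abundant keratins. ITGA6 and LAMB3 of the same list were higher after O/A, also without overlap, at 154 to 158 against 143 to 149 FPKM and at 472 to 499 against 423 to 432 FPKM. Differentiation markers summed to 19.5 to 21.3 and 20.7 to 22.0 FPKM, with KRT1 and LORICRIN at 0. This sum hides opposite moves, each without overlap. KRT10 was higher after O/A, at 12.89 to 14.53 against 9.58 to 10.86 FPKM, and IVL was lower, at 7.13 to 8.23 against 9.02 to 10.99 FPKM. Fibroblast markers summed to 2.42 to 2.95 and 2.45 to 2.69 FPKM, nearly all of it COL1A1, with COL1A2 at 0. Melanocyte markers summed to 0.35 to 0.64 and 0.28 to 0.66 FPKM, with MLANA and TYR at 0. The part of these marker differences in the results below was not tested, and in bulk RNA fewer cells of a type cannot be told apart from less RNA per cell.

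Of the 10 members, COQ10B rose 2.08-fold and COQ8B fell modestly, to 0.773 of its ethanol level, after O/A, while 7 others that could be tested did not pass both thresholds and COQ8A was too low to test. A gene was called changed at an adjusted p of at most 0.05 (edgeR quasi-likelihood test, Benjamini-Hochberg over 14893 genes) together with an absolute log2 fold change above 0.25. The 2 calls are 22.2% of the 9 members tested, where 34.7% of all genes tested were called, 15.8% upwards and 18.9% downwards. The O/A and ethanol libraries did not overlap for 3 of the 9 members, and for 47.6% of all genes tested. The median log2 fold change was 0.07 over the 9 members and 0.0 over all genes tested. The members' share of calls lay below that of all genes on either count, and this difference in shares was not tested.

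Before the values, the upstream sequence of the member that rose is shown beside that of its paralog COQ10A, which binds the same lipid, and that of COQ8B, the member that fell. RefSeq promoter windows on GRCh38.p14, from 250 bases before to 50 bases after each start, were found for 8 of the 10 members (15 windows), and only stretches outside annotated exons are printed. Capitals mark CCAAT or its reverse complement ATTGG, which was searched for after these letters had been read. The COQ10B stretch is chr2:197453302-197453492 (plus strand), that of COQ10A is chr12:56266692-56266889 (plus strand) and that of COQ8B is chr19:40716921-40717111 (minus strand), each written 5′ to 3′ on the strand of its gene.
COQ10B: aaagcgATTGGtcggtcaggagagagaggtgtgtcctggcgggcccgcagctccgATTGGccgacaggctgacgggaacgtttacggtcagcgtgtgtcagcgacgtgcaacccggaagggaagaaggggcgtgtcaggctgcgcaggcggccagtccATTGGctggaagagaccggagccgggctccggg
COQ10A: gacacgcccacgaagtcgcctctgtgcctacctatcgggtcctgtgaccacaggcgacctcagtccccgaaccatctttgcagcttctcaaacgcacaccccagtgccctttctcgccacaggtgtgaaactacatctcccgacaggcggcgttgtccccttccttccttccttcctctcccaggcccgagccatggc
COQ8B: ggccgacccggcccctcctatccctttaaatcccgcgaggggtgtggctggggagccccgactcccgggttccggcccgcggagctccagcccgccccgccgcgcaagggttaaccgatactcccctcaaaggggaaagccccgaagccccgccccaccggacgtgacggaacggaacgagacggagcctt
The COQ10B stretch held 3 copies, and the other two stretches held 0. A further window of each of these 3 genes, not shown, held 1 copy, and 1 window each of COQ2 and COQ6 held 2. Windows of COQ7 and COQ8A also held 3 copies, where COQ7 was not called changed and COQ8A could not be tested. COQ10A, with 0 copies in the stretch shown, was called up (log2 fold change 0.46). A link between copies and change was not tested. At least 1 copy was present in 34.6% of all 35116 windows and at least 3 copies in 3.26%.

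A further set of 9 motifs was searched on both strands of the same windows as a description. The COQ10B, COQ10A and COQ8B windows held none of them: the E-box CACGTG (in 7.26% of all windows), the cyclic AMP response element TGACGTCA (1.85%), the CARE core TGATGNAA (3.62%), the sterol regulatory element TCACNCCAC (1.13%), the heat shock element GAANNTTC (6.77%), the NRF1 core GCGCATGC (3.05%), the ETS core CCGGAAGT (4.14%), the YY1 core AAGATGGC (2.89%) and the ERR core AAGGTCA (3.92%). Among the remaining members, COQ2 held the cyclic AMP response element and the NRF1 core, COQ5 the sterol regulatory element and the YY1 core, and COQ7 the heat shock element, without overlap between different motifs. None of the windows of COQ6, COQ8A or COQ9 held any of the 9 motifs.

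COQ10B (chr2:197453493-197475310, plus strand, GRCh38) encodes a protein that binds coenzyme Q. It was at 32.2, 32.2, 34.2 and 33.2 CPM (counts scaled to the library total with edgeR's TMM factors) in the ethanol libraries and at 72.4, 70.6, 67.5 and 64.0 CPM in the O/A libraries. All 4 O/A libraries stood above all 4 ethanol libraries by a wide gap. The log2 fold change was 1.06 ± 0.045 (SE, n = 4 per condition), a fold of 2.08 with a 95% interval of 1.95 to 2.22 (edgeR adjusted p = 3.25e-26), and ranked 333 of 14893 from the largest rise. An exact two-sided permutation test gave p = 0.0286, the smallest possible with 4 against 4. No exon of another annotated gene overlapped those of COQ10B, and its pseudogene COQ10BP2 had 0 counts.

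COQ8B (chr19:40691514-40725784, minus strand) and COQ8A (chr1:226940286-226987544, plus strand) encode atypical kinase-like ATPases that promote assembly of the synthesis complex. COQ8B was at 11.4, 14.2, 12.1 and 13.2 CPM after ethanol and at 10.9, 10.5, 8.84 and 9.14 CPM after O/A. All 4 O/A libraries lay below the ethanol libraries, although the gap between 11.4 and 10.9 CPM was narrow. The log2 fold change was -0.37 ± 0.088 (SE), a fold of 0.773 with a 95% interval of 0.683 to 0.875 (edgeR adjusted p = 0.000351). The libraries held 211 to 280 reads of it after ethanol, against 159 to 195 with O/A. On the log2(FPKM + 1) scale, which compresses low levels, limma gave -0.20 and the gene was no longer past the fold threshold. COQ8A was almost silent, with 27 counts over all libraries (1 to 6 in each after ethanol, 1 to 5 after O/A), and 58.3% of its exonic bases also lie in exons of another gene on the same strand, so that no change could be measured at this depth.

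COQ2 (chr4:83261536-83284914, minus strand) is the prenyltransferase that joins tail and ring. It was at 14.5, 16.1, 15.2 and 15.3 CPM after ethanol and at 16.6, 16.8, 16.5 and 16.7 CPM after O/A. The libraries did not overlap, but the step was small: the log2 fold change was 0.13 (95% interval -0.01 to 0.27, edgeR adjusted p = 0.12), while the exact permutation test of this gene alone gave p = 0.0286. The gene was not called.

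The enzymes that modify the ring were not called either. COQ7 (chr16:19067614-19080095, plus strand), the hydroxylase of the penultimate step, was at 16.0, 19.8, 18.1 and 18.4 CPM after ethanol and at 18.7, 20.6, 19.7 and 22.4 CPM after O/A. The groups overlapped, and the log2 fold change of 0.17 (95% interval 0.03 to 0.31) passed the adjusted p (edgeR, 0.0311) but not the fold threshold. The adjusted p did not hold with DESeq2 (0.0592), with limma on log2 FPKM (0.168 and 0.17), with upper-quartile scaling in edgeR (0.0851), or in edgeR without the ethanol library of replicate 1 (0.151) or the O/A library of replicate 4 (0.149). COQ3 (chr6:99369401-99394195, minus strand), the O-methyltransferase, ranged from 16.5 to 20.3 CPM after ethanol and from 15.4 to 19.8 after O/A, with a log2 fold change of -0.11 (95% interval -0.26 to 0.04). COQ5 (chr12:120503279-120534434, minus strand), the C-methyltransferase, ranged from 25.4 to 31.6 CPM and from 24.4 to 27.4, with -0.06 (-0.19 to 0.06). Its highest value was the ethanol library of replicate 1, without which the difference was 0.02.

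COQ6 (chr14:73949926-73963670, plus strand), a hydroxylase of the ring, ranged from 12.8 to 16.8 CPM after ethanol and from 14.4 to 16.3 after O/A, with a log2 fold change of 0.07 (95% interval -0.09 to 0.23). Of its exonic bases, 33.4% lie opposite exons of ENTPD5, which had 6635 counts in the 8 libraries against 2234 for COQ6. The strand setting is not stated, so how reads from these shared bases were counted is not known. COQ4 (chr9:128322544-128334072, plus strand), a core protein of the complex, ranged from 21.5 to 24.0 CPM and from 21.1 to 25.3, with -0.02 (-0.15 to 0.11). COQ9 (chr16:57447425-57461270, plus strand), the lipid-binding partner of COQ7, ranged from 28.0 to 30.3 CPM and from 30.0 to 31.6, with 0.07 (-0.03 to 0.18). The edgeR adjusted p-values of COQ3, COQ4, COQ5, COQ6 and COQ9 lay between 0.216 (COQ3) and 0.822 (COQ4), and the ethanol and O/A libraries overlapped for each. The intervals of COQ4, COQ5, COQ6 and COQ9 lay inside the fold threshold on both sides, whereas those of COQ2, COQ3 and COQ7 reached past it, so a change of that size remains within the error of these 3 genes.

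**Figure D1:**
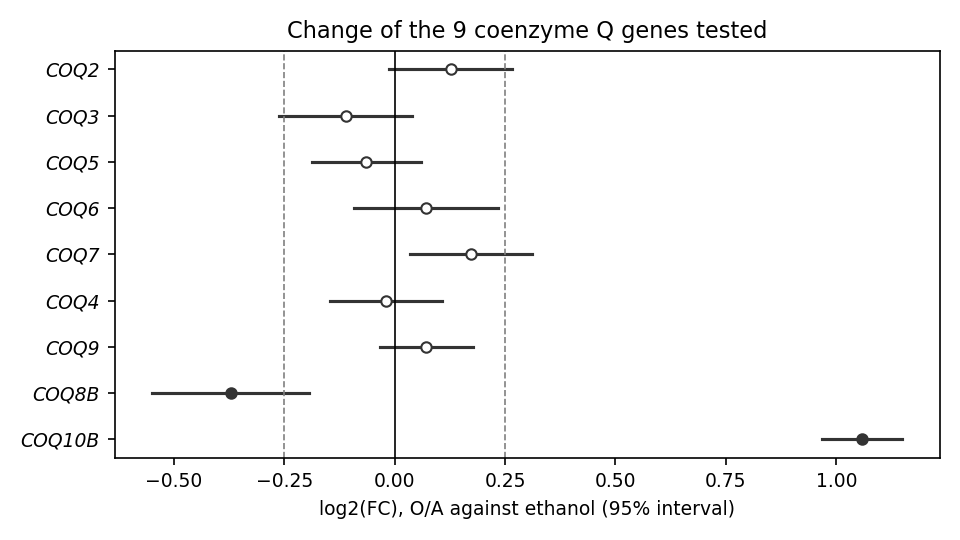
Log2 fold change of O/A against ethanol for the 9 members tested, with 95% intervals from the edgeR fit. Filled points were called and open points were not, and dashed lines mark the threshold of 0.25 in each direction. COQ10B stands far to the right at 1.06 and COQ8B to the left at -0.37, with the others near 0.

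**Figure D2:**
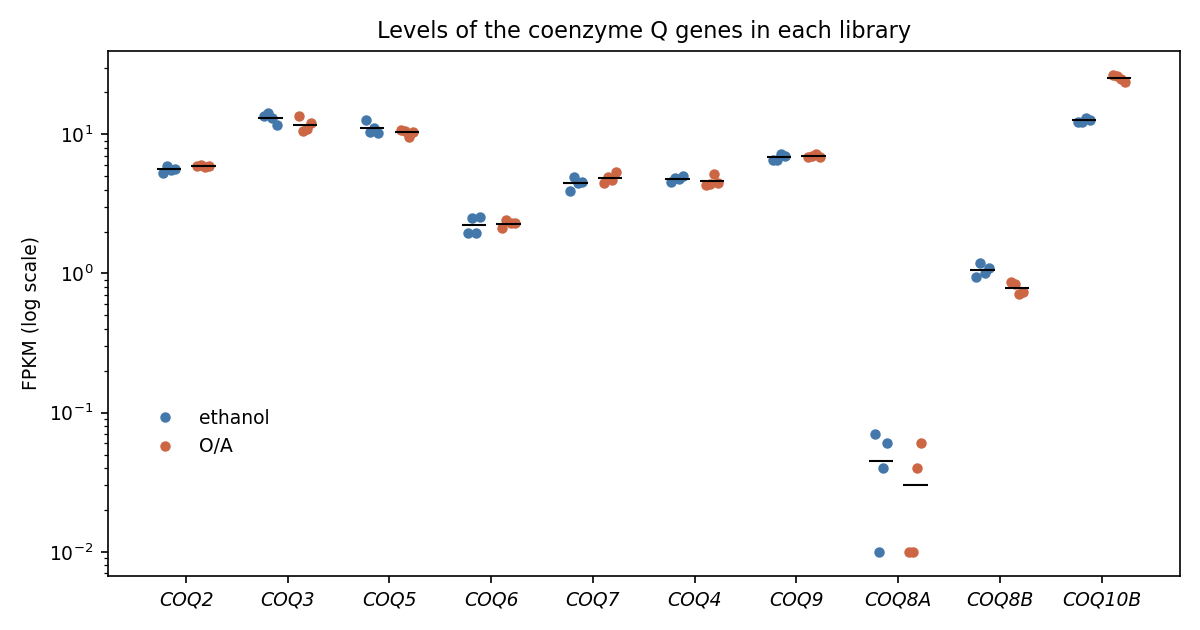
Levels of the 10 members in each library, in FPKM on a log axis, with points for single libraries and black bars for the mean of the 4 libraries of a condition. Only COQ10B separates widely, from 12.3 to 13.1 FPKM after ethanol and from 23.7 to 26.8 after O/A.

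Levels of different genes were compared per length, in FPKM, which divides by all annotated exonic bases of a gene (1448 for COQ3, 2654 for COQ10B and 12278 for COQ8B), so a gene with long unused exons reads low. After ethanol, COQ3 (13.1 ± 1.13, SD, n = 4), COQ10B (12.6 ± 0.403) and COQ5 (11.1 ± 1.13) were highest, and each overlapped with its neighbour. COQ9 (6.83 ± 0.299), COQ2 (5.59 ± 0.249), COQ4 (4.79 ± 0.217) and COQ7 (4.46 ± 0.393) followed, and of these neighbours COQ4 and COQ7 overlapped. COQ6 (2.23 ± 0.321), COQ8B (1.05 ± 0.105) and COQ8A (0.045 ± 0.0265) were lowest, each without overlap. After O/A, COQ10B (25.4 ± 1.4) stood alone at the top, above COQ3 (11.7 ± 1.31) and COQ5 (10.3 ± 0.522), which overlapped. COQ7 (4.88 ± 0.371) then lay above COQ4 (4.58 ± 0.385), again with overlap.

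The summed level shows how much of the difference rests on COQ10B. The 10 members together came to 61.9, 62.8, 62.2 and 60.4 FPKM after ethanol and to 75.5, 72.8, 71.4 and 71.8 after O/A. Without COQ10B the sums were 49.6, 50.5, 49.1 and 47.7 FPKM after ethanol and 48.7, 46.5, 46.4 and 48.2 after O/A, and the groups overlapped. COQ10B itself made up 19.6% to 21.1% of the sum after ethanol and 33.0% to 36.1% after O/A.

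**Figure D3:**
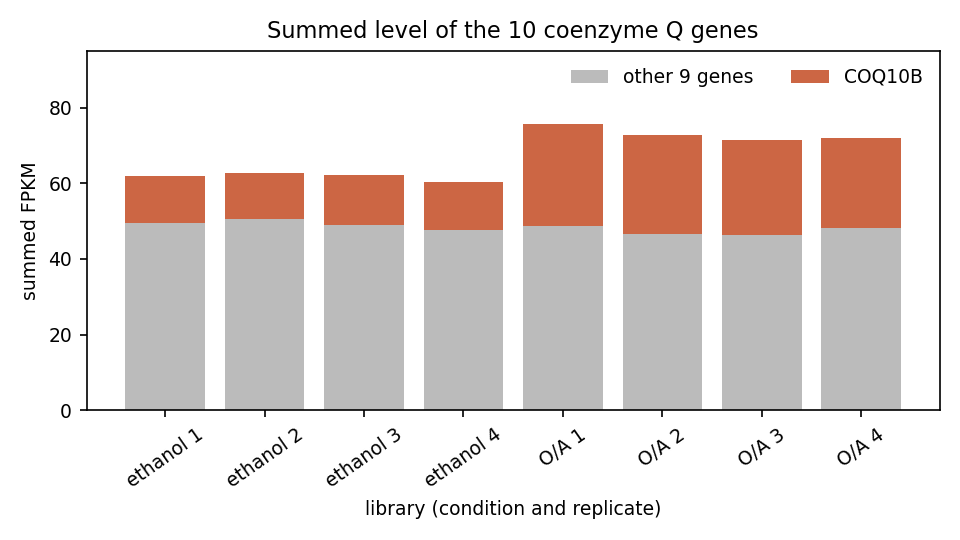
Summed FPKM of the members in each library, with COQ10B and the other members drawn apart. The O/A libraries are higher through COQ10B, while the remainder stays between 46.4 and 50.5 FPKM in all 8 libraries.

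The paralog COQ10A moved the same way from a lower level. It was at 4.31, 4.77, 4.56 and 5.03 CPM after ethanol and at 5.92, 6.68, 6.72 and 6.38 after O/A, without overlap, a log2 fold change of 0.46 ± 0.115 (SE, edgeR adjusted p = 0.000629). The ratio of COQ10B to COQ10A, from FPKM, was 8.56 ± 0.563 (SD, n = 4) after ethanol and 13 ± 1.25 after O/A, with ranges of 7.98 to 9.06 and 12.1 to 14.8 (exact permutation p = 0.0286, 0.0572 when adjusted over the 2 ratios computed). PDSS1 and PDSS2 form the synthase of the polyprenyl tail. PDSS1 was at 18.7, 19.3, 17.8 and 17.6 CPM after ethanol and at 14.4, 13.8, 15.7 and 16.6 after O/A, a log2 fold change of -0.28 ± 0.071 (edgeR adjusted p = 0.000726), and without the O/A library of replicate 2 it was -0.23 and not called. Of its exonic bases, 10.8% lie opposite exons of ABI1, which had 21507 counts in the 8 libraries against 2468 for PDSS1. PDSS2 was not called, at -0.08 (95% interval -0.20 to 0.04). The ratio of PDSS1 to PDSS2 was 1.57 ± 0.0512 and 1.38 ± 0.181, with overlapping ranges (exact permutation p = 0.1429, adjusted 0.1429).

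Of 16 further genes of the pathway, PDSS1, PDSS2 and COQ10A among them, 12 could be tested, and 1 rose, 4 fell and 7 were not called, with a median log2 fold change of -0.08. The list is not complete, and it counts ADCK1, ADCK2 and ADCK5 by their kinship to COQ8A and COQ8B. Whether these relatives take part in the pathway was not examined. The 5 calls are 41.7% of the 12 genes tested, beside 34.7% of all genes. Those that fell, besides PDSS1, were ADCK5 and ADCK2, kinase-like relatives of COQ8A and COQ8B, and the mitochondrial oxidoreductase RTN4IP1. ADCK5 went from between 7.71 and 8.86 CPM after ethanol to between 3.61 and 5.93 after O/A, a log2 fold change of -0.80 ± 0.117 (SE). ADCK2 was at -0.33 and RTN4IP1 at -0.32, and 39.2% of the exonic bases of RTN4IP1 lie opposite exons of the more abundant CRYBG1. None of these 4 genes is one of the 10 members, and no difference between the lists was tested.

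The isoprenoid precursors of the tail come from the mevalonate pathway and its branch, of which 8 genes were counted here, all of them tested. Of these 1 fell and 7 were not called (12.5% called, beside 34.7% of all genes). The list is not the whole pathway, and no direction of the pathway is read from it. The one that fell was HMGCS1, which condenses acetoacetyl-CoA, from 192 ± 2.66 to 144 ± 6.10 FPKM (SD, n = 4), a log2 fold change of -0.37 (edgeR adjusted p = 1.34e-17).

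Genes listed for enzymes that pass electrons to coenzyme Q, with subunits and partner proteins, numbered 14, of which 13 were tested. Of these 2 rose, 1 fell and 10 were not called (23.1% called, beside 34.7% of all genes). This list, too, is only a part of such genes. ETFDH, which takes electrons from fatty acid and amino acid oxidation, was at 19.6, 17.9, 20.9 and 21.3 CPM after ethanol and at 32.0, 33.6, 33.9 and 34.0 after O/A, a log2 fold change of 0.74 ± 0.058 (SE, edgeR adjusted p = 5.96e-16). Of the exonic bases of ETFDH, 6.0% lie opposite exons of PPID, which had 8584 counts in the 8 libraries against 3914 for ETFDH. AIFM2, which reduces coenzyme Q outside mitochondria, went from between 12.4 and 13.6 CPM to between 15 and 19.8, a change of 0.40, and 19.2% of its exonic bases lie opposite exons of MACROH2A2. DHODH, an enzyme of pyrimidine synthesis, went from between 6.58 and 7.92 CPM to between 4.71 and 5.23, a change of -0.58 ± 0.112. The O/A libraries were without overlap above or below the ethanol libraries for each of these 3 genes. That was not particular to them. Among the 13 tested, 7 genes lay above and 2 below without overlap, where 47.6% of all genes tested did not overlap.

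**Figure D4:**
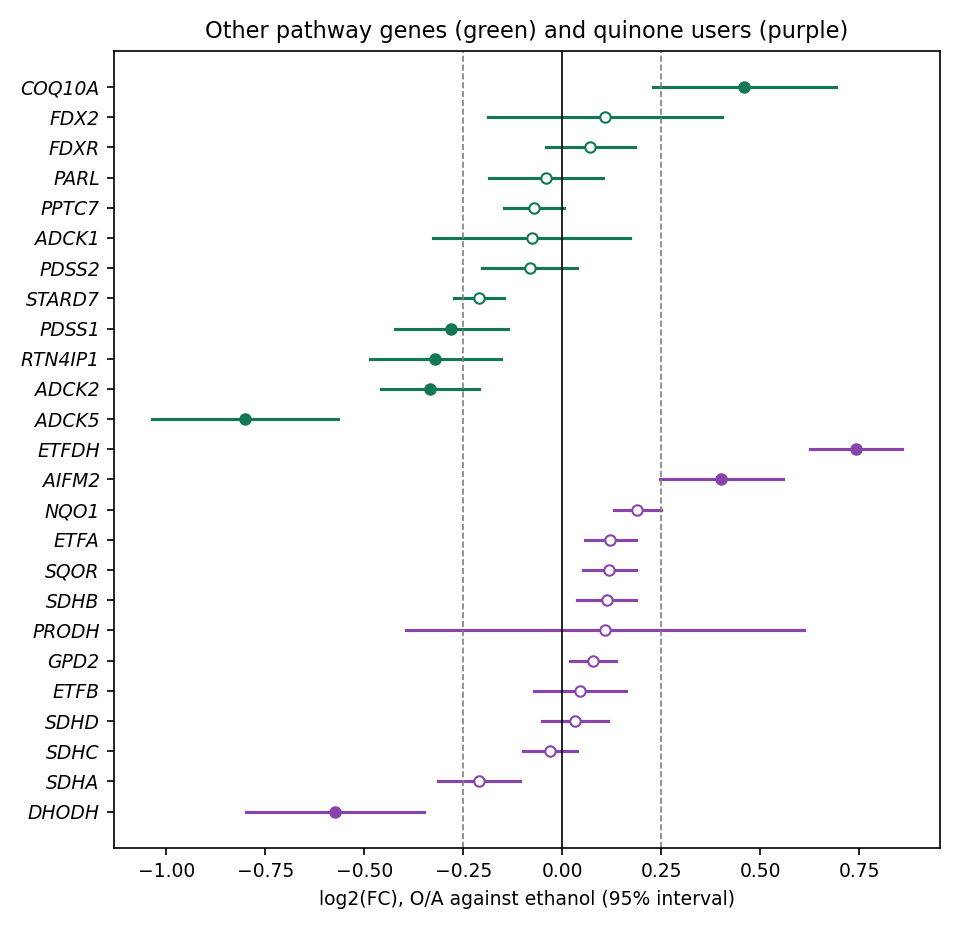
Log2 fold change of O/A against ethanol, with 95% intervals, for tested genes. Green marks the further pathway genes, and purple those listed for enzymes that pass electrons to coenzyme Q, with subunits and partner proteins. Filled points were called and open points were not, and dashed lines mark the threshold of 0.25. ETFDH (0.74) is farthest to the right and ADCK5 (-0.80) farthest to the left.

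The genes whose levels ran most like COQ10B over the 8 libraries, by Pearson correlation of log2 CPM among 11388 genes with a mean of at least 1 FPKM, were SPCS3 (r = 0.9989), NAMPT (0.9985) and CSTA (0.9985). These points share the same 8 libraries in 2 groups, and 1311 genes (11.5%) had r above 0.95, so the likeness is a description of the split between conditions. NAMPT, a synthesis enzyme of NAD, went from 12.5 to 22.0 FPKM, the cystatin CSTA from 62.3 to 113.0, and SPCS3, a subunit of the signal peptidase, from 37.9 to 47.7.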

How the data were processed

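HISAT2 2.0.1, HTSeq 0.6.1 and the build GRCh38.p13 are named in the submitters' processing notes, and the authors made gene counts from paired-end reads. The deposited counts are whole numbers without normalization, and the deposited FPKM values, also by the authors, differed from count per exonic size and library total by at most 0.005. The strand setting and the annotation release are not given in the sources used here. A deposited table of the authors' own comparison (means, fold changes, log2 fold changes with their errors, test statistics, p-values and adjusted p-values) was not used.

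Counts were tested with edgeR 4.0.16 (R 4.3.3; TMM, robust quasi-likelihood) over 14893 genes that reached 10 counts in 4 or more libraries. Standard errors were the log2 fold change divided by the root of the F statistic, and 95% intervals used the t distribution of the fit. Alternatives were DESeq2 1.42.0, limma 3.58.1 on log2(FPKM + 0.1) and log2(FPKM + 1), other scalings, no filter, other fold thresholds, a replicate block and leaving out each library. Same-numbered libraries did not deviate together (correlations -0.02 to 0.07), so the numbers were not taken as pairs. Libraries of 1 condition differed beyond counting noise (chi-square per degree of freedom 1.72 to 5.48 over 12464 genes), so each library was kept as its own replicate.

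Named genes were all members, the up to 4 largest calls in each direction of each context list, PDSS1, PDSS2, COQ10A, and the 3 genes most like the member with the largest change. Some genes overlapping members or context genes were also named. Members and lists were chosen with earlier results of these data known. Some genes are not reported here, and they were left out of the counts over the context lists after values had been computed, but not from the fit or the counts over all genes.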

Additional observations from a re-analysis of the deposited data

Results flagged for a closer look

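COQ9 in the O/A library of replicate 3 was at 31.6 CPM, set apart from the other O/A libraries at 30.0 to 30.3 CPM, with a gap of 0.837 of the range of the group, past the 95% limit of Dixon's test for 4 libraries. It was 1 of 40 groups of 4 libraries looked at, where chance gives about 2.0.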

How the results depend on the processing

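COQ10B kept its direction and call in each of the 15 alternatives, between 0.96 and 1.09 on the log2 scale. COQ8B lost its call on the log2(FPKM + 1) scale (-0.20), leaving 1 member called and 0 down, as did a fold threshold of 0.5 (1 called, 0 down). With no fold threshold 2 members rose, COQ7 being added, whose adjusted p passed in some alternatives only. A threshold of 0.5 left 1 of the further pathway genes called (0 up, 1 down), 0 isoprenoid genes (0 down) and 2 quinone users (1 up, 1 down). With no threshold 2 isoprenoid genes were called (1 up), and 9 quinone users were called, 7 up and 2 down. Over all genes, 7999 were called with no threshold (3868 up) and 2636 at 0.5 (1191 up, 1445 down), and 1514 rose on the log2(FPKM + 1) scale. Leaving out 1 library moved COQ4 between -0.077 and 0.016 and COQ5 between -0.097 and 0.015, across 0, COQ3 between -0.18 and -0.05, COQ6 between 0.02 and 0.15, and PDSS1 between -0.32 and -0.23. The cause was not tested. A fit with the replicate number as a block gave 1.06 for COQ10B and 2 members called, and changed no member's call. The median of all genes was 0.007 with median-ratio and -0.033 with upper-quartile scaling, and -0.043 with limma on log2(FPKM + 0.1). Genes with few counts, COQ8A above all, are limited by depth, and p-values measure the spread among 4 experiments with 1 line.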
